A study of Macaca mulatta with 24 samples.

Results

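The coagulation, serpin and complement genes are a list of 57 genes, made up of 26 genes of blood clotting, anticoagulation and fibrin breakdown, 15 serpins and 16 genes of the complement system. Members were found by gene symbol on the array and each was represented by the probe with the highest mean over the 24 arrays. A named probe was found for 50 of the 57, of 16103 named genes on the array, and 46 of the 50 were bright enough to be tested. No probe carried the symbol of C1R, C1S, C2, C5, CFI, F5 or F11 here. The measurements are colon RNA of young-adult male rhesus macaques that received a single uniform cobalt-60 gamma dose to the whole body (total-body irradiation, TBI) or a sham exposure. The groups were 4 sham-irradiated controls labelled day 4 with a dose of 0 Gy, 4 animals per dose at day 4 and 4 per dose at day 7 (6.7-Gy TBI and 7.4-Gy TBI), and 2 per dose at day 12. The same controls served for both doses and all days, so comparisons with control share those 4 animals. Whole gut tissue was used, 1 animal per array, and in such bulk RNA fewer cells of a type and less RNA per cell cannot be told apart. With 2 animals at day 12 per dose, that day was measured least precisely.

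Coagulation starts when tissue factor (F3) meets circulating factor VII and ends when thrombin (F2) turns fibrinogen into a fibrin clot. Thrombomodulin (THBD), the endothelial protein C receptor (PROCR), protein S (PROS1) and the tissue factor pathway inhibitors hold the process back, and plasminogen activators dissolve the clot. Serpins are a family of proteins that mostly trap and inactivate proteases, among them clotting and neutrophil proteases. Complement is a protease cascade centred on C3 that coats microbes and damaged cells, and CD46, CD55 and CD59 protect the body's own cells from it. Many of these proteins are made mainly in the liver and reach tissues in plasma, so RNA in the colon reports only what colon cells themselves transcribe.

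The tissue label was borne out by epithelial markers, since EPCAM, VIL1, CDX2, KRT8, KRT18 and KRT20 were well above background on all 24 arrays. The share of probes brighter than background by the scanner's criterion ran from 66.8% to 85.0%, and arrays of the same group correlated with r from 0.969 to 0.987. All values given here are log2 processed signals relative to the 75th percentile of their array, so a value of 0 equals that percentile. A member passed the test when limma's Benjamini-Hochberg adjusted p over all probes was under 0.05 and the change was at least 2-fold. The 75th percentile itself ran from 558.3 to 970.6 intensity units over the arrays, and the number of arrays limits the precision.

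Of the 46 tested members, 33 were well above background on all 24 arrays and 13 on only some. FGB and FGG (chains of fibrinogen), PLG (plasminogen) and SERPIND1 (heparin cofactor II), all typical liver products, were well above background on no array and were not tested. Another fibrinogen chain, FGA, was well above background on 3 arrays, F7 and F8 on 5 each, and F2 on 8. A few of the dim members could enter the test only through the groups where they were bright, so the counts describe these genes and are no separate evidence about the list.

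On day 4 the called members were mostly higher than in controls, and at days 7 and 12 the only member called against control was SERPINA2. After 6.7-Gy TBI at day 4, 9 of 46 members were called higher and 2 lower, against 2.24% and 1.89% of the 14729 named genes tested. After 7.4-Gy TBI at day 4, 16 were called higher and 2 lower, against 4.13% and 3.9% of named genes (8.04% in either direction). The median log2 change of the members was 0.39 at 6.7 Gy and 0.91 at 7.4 Gy, where that of all named genes was -0.04 and -0.03. At day 7, 0 members were called higher and 1 lower at either dose, with backgrounds of 0.156% higher and 0.231% lower at 6.7 Gy and 0.19% and 0.272% at 7.4 Gy. At day 12, 1 member was lower after 6.7 Gy (background 0.0136%) and 0 were called after 7.4 Gy (background 0.0136% higher, 0.00679% lower and 0.0204% in either direction), where 2 members had an unadjusted limma p under 0.05 and the methods' t-test also called 0.

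**Figure D1:**
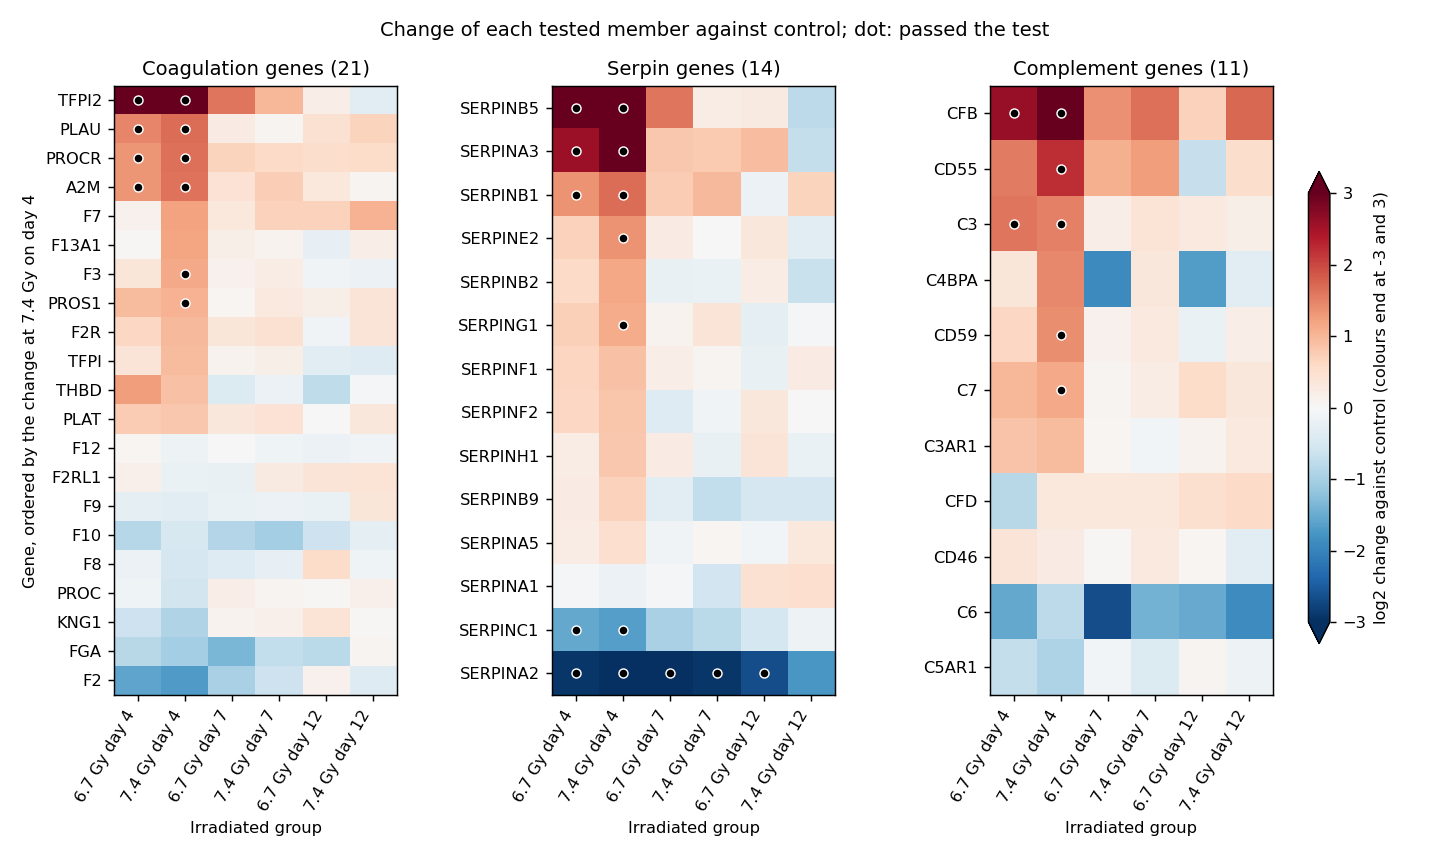
Log2 change of each of the 46 tested members (rows) against control in the 6 irradiated groups (columns), from blue for lower to red for higher, with a dot where the member passed the test. Dots stand in the 2 day 4 columns except for SERPINA2, whose dots run through day 7 and to 6.7 Gy at day 12.

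In all, 22 members passed in at least 1 comparison, of which 9 were coagulation genes, 7 serpins and 6 complement genes. The share of all named genes was taken for each comparison only, so this count has no background beside it. Of the 16 members that rose at day 4 after 7.4 Gy, 9 rose after 6.7 Gy as well and 7 were called at the higher dose only, a split that is no test of the dose. Within the 6.7-Gy day 4 group, animal 2 had the highest value for all 16 of these members. The log2 of the summed signal of its 4 tested neutrophil markers was 2.31 where the other 3 animals of that group had 0.02, 0.51 and 0.46 and the controls -0.26 to 0.15. Without that animal, 6 members in place of 11 were called after 6.7 Gy, among them F2, newly called lower (-2.09, adjusted p = 0.0393). The rises of PLAU, SERPINA3, SERPINB1, SERPINB5 and TFPI2 and the fall of SERPINC1 were no longer called. Those of PROCR, A2M, C3 and CFB and the fall of SERPINA2 stayed called. In the 7.4-Gy day 4 group, animal 1 was highest for 8 of the 16 and animal 3 for 7, with neutrophil sums of 0.89 and 3.42 beside 0.78 and 0.17 in animals 2 and 4. The part of neutrophils in these changes was not tested.

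F3, tissue factor, measured -1.58, -2.07, -1.82 and -2.005 in the 4 controls and -0.51, -0.78, -0.54 and -1.14 in the 4 animals at day 4 after 7.4 Gy. After 6.7 Gy it measured -1.51, -1.22, -1.74 and -1.52 on the same day. All 7.4-Gy animals lay above all controls, and the 6.7-Gy animals overlapped them. F3 rose 2.19-fold after 7.4 Gy (log2 change 1.13 ± 0.21 SE, adjusted p = 0.00102), whereas the log2 change after 6.7 Gy was 0.37 and did not pass. Day 7 values ran from -2.12 to -1.31 and day 12 values from -2.37 to -1.72, across the control range. With normexp background correction the change at 7.4 Gy was 0.84, under 2-fold.

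PROCR, the receptor on endothelium that presents protein C for activation, was 1.19, 1.34, 0.90 and 1.38 in controls. On day 4 it was 2.02, 3.01, 2.58 and 2.46 after 6.7 Gy and 3.32, 2.56, 3.26 and 2.26 after 7.4 Gy. No day 4 animal overlapped the controls. PROCR rose 2.49-fold after 6.7 Gy (1.31 ± 0.25 SE, adjusted p = 0.00351) and 3.13-fold after 7.4 Gy (1.65 ± 0.25 SE, adjusted p = 0.00021). At day 7 the lowest, median and highest of the 8 animals were 1.49, 1.75 and 2.37, all still above the highest control, although neither dose passed the test at that time. The 4 day 12 animals, from 1.55 to 1.89, were above the controls too and did not pass either.

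THBD, the thrombin receptor on endothelium that switches thrombin from clotting to protein C activation, spread most among the 6.7-Gy animals. Controls lay close together at -3.66, -3.54, -3.72 and -3.52. The 6.7-Gy animals of day 4 measured -2.07, -0.74, -3.11 and -3.53, and the 7.4-Gy animals -2.52, -2.88, -2.50 and -3.05. Neither dose passed against control, with log2 changes of 1.25 (adjusted p = 0.0781) and 0.87 (adjusted p = 0.172). With array position as a block both did, at 2.20 (adjusted p = 0.00493) and 2.79 (adjusted p = 0.00806). The effect of position in that fit came only from the 6.7-Gy animals of day 4. They measured -2.07 and -0.74 at position 1 and -3.11 and -3.53 at position 2, a gap that the 7.4-Gy value carries. Between days THBD did pass: it was 2.56-fold lower at day 7 than at day 4 (-1.35 ± 0.31 SE, adjusted p = 0.00382) and 2.74-fold lower at day 12 (-1.46 ± 0.38 SE, adjusted p = 0.00969). At day 12, with -4.11, -4.64, -3.71 and -3.56 over both doses, all animals were below the lowest day 4 animal. Both of these changes fell under 2-fold with normexp correction, at -0.79 and -0.54.

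PROS1, the cofactor of activated protein C, measured -2.34, -2.62, -3.10 and -2.78 in controls and -1.31, -1.56, -1.80 and -1.96 at day 4 after 7.4 Gy. The 6.7-Gy animals measured -1.52, -1.32, -1.77 and -2.44, the last of them inside the control range. The rise after 7.4 Gy was 2.07-fold (1.05 ± 0.21 SE, adjusted p = 0.00187). After 6.7 Gy the log2 change of 0.94 had an adjusted p of 0.00889 but stayed under 2-fold. A second, dimmer PROS1 probe gave 0.95 and 1.18 in these comparisons. Leaving out 7.4-Gy animal 1 or control 3, or entering slide or scan day as a block, brought the 7.4-Gy change to between 0.92 and 0.996, under 2-fold.

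TFPI, which blocks tissue factor with factor VII, passed only between day 12 and day 4. Its controls were -0.39, -1.24, -0.62 and -0.998, the 6.7-Gy day 4 animals -0.49, -0.56, -0.41 and -0.27, and the 7.4-Gy day 4 animals 0.15, 0.52, 0.14 and -0.27. After 7.4 Gy all 4 animals lay above all controls, with a log2 change of 0.95 (adjusted p = 0.00178) that was short of 2-fold. Day 12 values of -1 and -1.29 after 6.7 Gy and -1.23 and -1.15 after 7.4 Gy were all under the day 4 values. The fall from day 4 to day 12 was 2.03-fold (-1.02 ± 0.16 SE, adjusted p = 0.000266). It dropped just under 2-fold with quantile normalization (-0.995), spike-in scaling (-0.97), normexp correction (-0.82) and the mean of both TFPI probes (-0.91), and also without any of 3 single animals.

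TFPI2, a matrix-bound protease inhibitor of the same family, gave one of the widest ranges of the list. It was well above background in 0 of 4 controls, where its measured values were -5.71, -6.74, -7.33 and -5.98. At day 4 it measured -1.61, 0.75, -3.83 and -3.86 after 6.7 Gy, above background in all 4 animals, and -2.40, -3.94, -0.51 and -5.63 after 7.4 Gy, above background in 3. Because the controls give only a bound, TFPI2 was at least 11.01-fold higher after 6.7 Gy (adjusted p = 0.0164) and at least 5.58-fold higher after 7.4 Gy (adjusted p = 0.0338). By day 7 the 8 animals had a lowest, median and highest of -7.00, -4.97 and -3.37, a measured log2 change from day 4 of -2.51 ± 0.75 SE (adjusted p = 0.0192), or at least 4.96-fold lower. The 4 animals of day 12 lay between -7.13 and -5.74, 1 of them above background, and the measured change from day 4 was -3.87 ± 0.92 SE (adjusted p = 0.00529), or at least 6.81-fold lower.

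The TFPI2 calls rested on few animals. Without 6.7-Gy animal 2 the log2 change after 6.7 Gy was 3.34 with an adjusted p of 0.0552, and without 7.4-Gy animal 3 the change after 7.4 Gy was 2.45 with an adjusted p of 0.12. It was also not called after 7.4 Gy without 7.4-Gy animal 1 (adjusted p = 0.0886) or without control 2, 3 or 4 (adjusted p from 0.0536 to 0.0807). With normexp correction the changes against control were 1.504 (adjusted p = 0.129) and 0.997 (adjusted p = 0.259). The falls from day 4 were not called with it either, at -1.12 for day 7 (adjusted p = 0.0686) and -0.98 for day 12 (adjusted p = 0.11). The day 7 fall was also lost with slide as a block (adjusted p = 0.054) and by the methods' t-test (adjusted p = 0.0522). A second probe for TFPI2 measured 2.86 (adjusted p = 0.0425) and 2.31 (adjusted p = 0.0664).

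PLAU, the urokinase plasminogen activator, measured -0.04, 0.61, 0.91 and -0.55 in controls. On day 4 PLAU was 1.73, 2.88, 1.21 and 1.01 after 6.7 Gy and 2.03, 1.64, 2.80 and 1.15 after 7.4 Gy, in every animal above every control. These were rises of 2.77-fold (1.47 ± 0.39 SE, adjusted p = 0.0230) and 3.18-fold (1.67 ± 0.39 SE, adjusted p = 0.00567). Its second probe gave 1.55 and 1.89. By day 7, at -0.27 to 0.91 with a median of 0.40, no animal reached the lowest day 4 value, and PLAU was 2.65-fold lower than at day 4 (-1.41 ± 0.28 SE, adjusted p = 0.00116). The fall from day 4 to day 12, 2.004-fold (adjusted p = 0.0366), sat at the threshold and was lost when any of 8 animals was left out. The 6.7-Gy rise was lost without 6.7-Gy animal 1 or 2 or control 1 or 4, with adjusted p from 0.0505 to 0.0758.

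PLAT, the tissue plasminogen activator, had log2 changes of 0.77 after 6.7 Gy (adjusted p = 0.174) and 0.80 after 7.4 Gy (adjusted p = 0.116) at day 4 and did not pass. A2M, a broad protease trap outside the serpin family, was 3.72, 3.06, 3.37 and 3.27 in controls, 4.31, 5.09, 4.99 and 4.28 on day 4 for 6.7 Gy, and 5.31, 4.73, 5.30 and 4.63 after 7.4 Gy. Both day 4 groups were separate from the controls. A2M rose 2.49-fold after 6.7 Gy (1.31 ± 0.26 SE, adjusted p = 0.00545) and 3.11-fold after 7.4 Gy (1.64 ± 0.26 SE, adjusted p = 0.000412). At day 12 it was 2.42-fold lower than at day 4 (adjusted p = 0.00204), a comparison over 3 day 12 animals because 1 value was an outlier spot. In each run that left out 1 animal, the 3 calls of A2M stayed past the threshold.

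**Figure D2:**
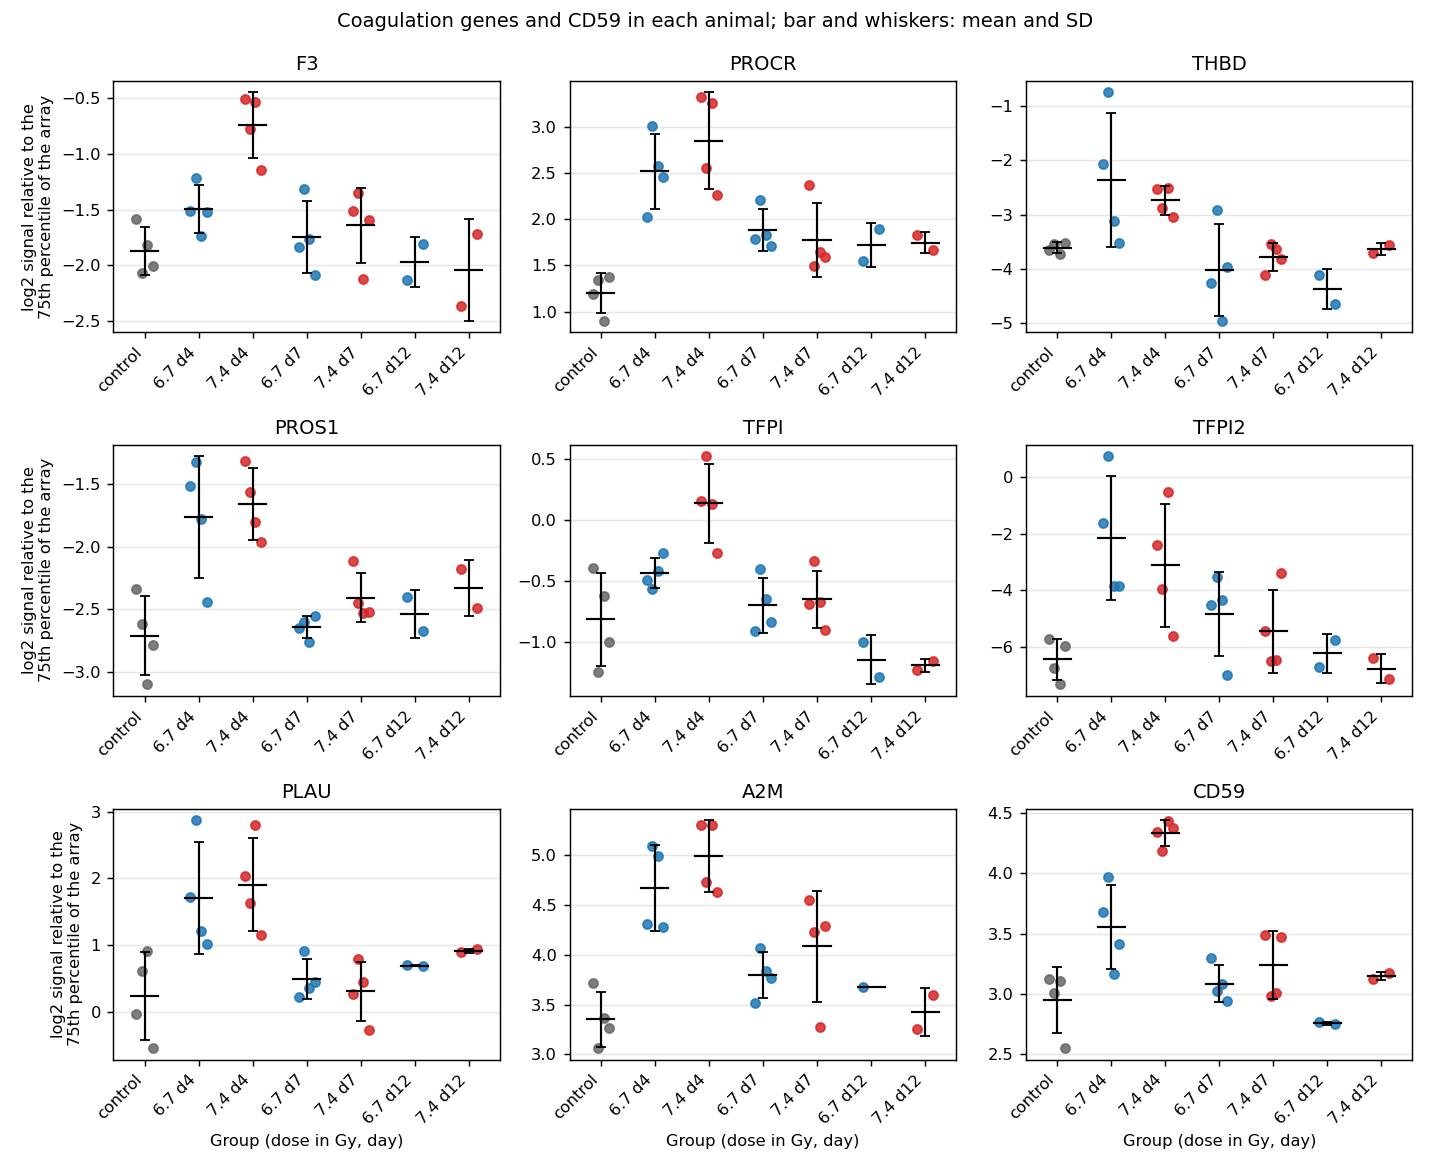
Log2 signal of 8 coagulation genes and of CD59 in each animal (points) by group, controls in grey, 6.7 Gy in blue and 7.4 Gy in red, with the mean and SD of each group in black. Day 4 animals sit highest in most panels, and TFPI2 and THBD have the widest spread after 6.7 Gy, led by animal 2.

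Of the coagulation proteins that the liver makes for plasma, F2, F7, F8, F9 and FGA were well above background on only some arrays. F10, F12, KNG1 and the anticoagulant PROC were so on all 24. F2, prothrombin, was well above background on 8 of 24 arrays and passed only between day 12 and day 4 (log2 change 1.51 ± 0.52 SE, adjusted p = 0.0403), where the dim arrays bound the difference only at 1.35-fold or more, under the 2-fold threshold. That comparison set 2 of 4 arrays above background at day 12 against 2 of 8 at day 4, overlapped between the days, and was lost when any of 8 animals was left out. In controls F2 measured -4.58, -4.65, -6.19 and -4.41, and at day 4 it ranged from -7.60 to -5.03. The log2 change of F2 at day 4 after 7.4 Gy was -1.70, with 1 of 4 animals above background, and did not pass. It passed with slide (adjusted p = 0.015) or replicate number (0.0337) as a block or an intensity trend (0.0479), and not with position as a block, median centring or normexp correction. KNG1, kininogen, was well above background on all arrays and had a log2 change of -0.90 at day 4 after 7.4 Gy (adjusted p = 0.00979), short of 2-fold. F13A1, which cross-links fibrin, had changes of 0.04 after 6.7 Gy and 1.18 after 7.4 Gy (adjusted p = 0.0573). The second passed with array position as a block (2.88, adjusted p = 0.0043), where the position effect again came only from the 6.7-Gy animals. It also passed with median centring or quantile normalization (adjusted p = 0.044 each), spike-in scaling (0.0241), an intensity trend (0.0476) and from the compared groups alone (0.0304). With normexp correction, the methods' t-test or slide, scan day or replicate number as a block it did not. F7, F8, F9, F10, F12, FGA and PROC ranged from -1.02 to 1.199 at day 4 after 7.4 Gy and none passed. The thrombin receptor F2R and the related receptor F2RL1 had changes of 0.98 (adjusted p = 0.113) and -0.19 (adjusted p = 0.656) there.

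Among the 14 serpins tested, 5 rose and 2 fell at day 4 after 7.4 Gy, against 4.13% and 3.9% of all named genes. SERPINA2 stood apart because it was lower at every time. SERPINA2, named on the array as a relative of alpha-1-antitrypsin, measured 0.63, 0.65, 1.79 and 1.82 in the 4 controls. At day 4 it measured -1.31, -1.70, -1.94 and -1.84 after 6.7 Gy and -1.93, -1.73, -1.39 and -2.24 after 7.4 Gy. The day 7 animals measured -1.61, -1.73, -1.86 and -1.98 after 6.7 Gy and -1.69, -2.01, -1.48 and -1.64 after 7.4 Gy. At day 12 it measured -1.40 and -1.49 after 6.7 Gy and -0.99 and -0.04 after 7.4 Gy, so that all 20 irradiated animals were below all 4 controls, which themselves formed a lower and a higher pair.

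SERPINA2 fell 7.57-fold at day 4 after 6.7 Gy (log2 change -2.92 ± 0.27 SE, adjusted p = 6.5e-06) and 8.22-fold after 7.4 Gy (-3.04 ± 0.27 SE, adjusted p = 1.53e-06). At day 7 the falls were 8.09-fold (-3.02, adjusted p = 1.31e-05) and 7.60-fold (-2.93, adjusted p = 9.76e-06). At day 12 it fell 6.35-fold after 6.7 Gy (-2.67 ± 0.33 SE, adjusted p = 0.00253), while after 7.4 Gy the log2 change of -1.74 had an adjusted p of 0.069 and did not pass. That last change did pass with quantile normalization (adjusted p = 0.0448), an intensity trend in limma (0.0406), normexp correction (0.00427) or without control 1 (0.0458). All controls lay at array position 1 and no day 7 or day 12 array did, so for those days position and group cannot be told apart. For day 4, with position as a block, the changes were -2.73 (adjusted p = 0.00054) and -2.65 (adjusted p = 0.00376).

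SERPINA1, alpha-1-antitrypsin itself, the main inhibitor of neutrophil elastase, had 3 probes and none passed in either day 4 comparison. Its brightest probe changed by -0.03 after 6.7 Gy and -0.17 after 7.4 Gy. SERPINA1 and SERPINA2 are close relatives, and whether the SERPINA2 probe also binds SERPINA1 RNA was not tested.

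SERPINA3, alpha-1-antichymotrypsin, an acute-phase inhibitor of neutrophil cathepsin G, measured -1.15, -2.20, -2.48 and 0.55 in controls. Its day 4 values were 0.99, 2.72, 1.37 and -0.09 after 6.7 Gy and 3.30, 0.52, 2.13 and 1.23 after 7.4 Gy. Control 4 overlapped both groups. The rise was 5.94-fold after 6.7 Gy (2.57 ± 0.72 SE, adjusted p = 0.0298) and 8.68-fold after 7.4 Gy (3.12 ± 0.72 SE, adjusted p = 0.00538), and a second probe gave 2.29 and 2.66. SERPINA3 was 4.13-fold lower at day 7 than at day 4 (-2.05 ± 0.51 SE, adjusted p = 0.00647) and 6.64-fold lower at day 12 (-2.73 ± 0.63 SE, adjusted p = 0.00404). The 6.7-Gy call was lost when any of 6 animals was left out, namely control 1, 2 or 3 or 6.7-Gy animal 1, 2 or 3, with adjusted p from 0.0541 to 0.0933.

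SERPINB1, which inhibits neutrophil proteases inside cells, was 3.27, 2.85, 3.46 and 2.22 in controls. On day 4 it was 4.15, 5.11, 4.002 and 3.92 after 6.7 Gy and 4.75, 3.91, 5.01 and 4.80 after 7.4 Gy, in each animal above every control. The rises were 2.55-fold (1.35 ± 0.35 SE, adjusted p = 0.0196) and 3.18-fold (1.67 ± 0.35 SE, adjusted p = 0.00259). At day 7 the log2 changes were 0.77 and 0.98 and did not pass, and at day 12 SERPINB1 was 2.40-fold lower than at day 4 (adjusted p = 0.00526). The 6.7-Gy call was lost without 6.7-Gy animal 2 (adjusted p = 0.065) or control 4 (adjusted p = 0.0669).

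SERPINB5, maspin, a serpin of epithelial cells without inhibitory activity on proteases, was near background in controls. Controls measured -6.87, -7.39, -7.51 and -4.48, with 1 of 4 above background. At day 4 it was above background in all 8 animals, at -3, -1.79, -3.65 and -4.23 after 6.7 Gy and -0.83, -2.48, -1.497 and -1.86 after 7.4 Gy. SERPINB5 rose at least 4.15-fold after 6.7 Gy (measured log2 change 3.39 ± 0.84 SE, adjusted p = 0.0164) and at least 11.76-fold after 7.4 Gy (4.89 ± 0.84 SE, adjusted p = 0.000618). Its second probe gave 2.18 and 3.23. Normexp correction shrank the changes to 0.91 (adjusted p = 0.105) and 1.94, and without 6.7-Gy animal 2 the adjusted p after 6.7 Gy was 0.0529. At day 7 the lowest, median and highest were -7.997, -5.39 and -3.45, a measured log2 change from day 4 of -3.23 ± 0.59 SE (adjusted p = 0.000714), or at least 6.63-fold lower. At day 12 all 4 animals were below all day 4 animals, a measured log2 change of -4.40 ± 0.73 SE (adjusted p = 0.000355), or at least 7.575-fold lower.

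SERPINC1, antithrombin, the main plasma inhibitor of thrombin, moved the other way at a level near background. It measured -4.95, -4.23, -3.93 and -4.50 in controls, with 3 of 4 above background. At day 4 it measured -6.01, -5.67, -6.03 and -6.07 after 6.7 Gy and -5.67, -7.396, -5.20 and -5.92 after 7.4 Gy, with 1 of 4 above background in each group. All day 4 values were under all control values. The falls were at least 2.295-fold (measured log2 change -1.54 ± 0.45 SE, adjusted p = 0.0353) and at least 2.69-fold (-1.64 ± 0.45 SE, adjusted p = 0.0148). The log2 change from day 4 to day 12 was 1.26 (adjusted p = 0.0243), with a bound of at least 1.97-fold, under the 2-fold threshold. With array position as a block neither fall passed (adjusted p = 0.135 and 0.288), and with normexp correction they shrank to -0.56 and -0.55. The 6.7-Gy fall passed in 1 of the 8 runs without an animal, the 7.4-Gy fall in all but the run without 7.4-Gy animal 2 (adjusted p = 0.051), and the day 12 change was lost without 7.4-Gy day 12 animal 2 (0.71, adjusted p = 0.209) or 6.7-Gy day 12 animal 1 (1.13, adjusted p = 0.101).

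SERPINE2, protease nexin 1, a cell-surface inhibitor of thrombin and plasminogen activators, was called after 7.4 Gy. Controls measured 1.57, 0.88, 1.196 and 0.74, the 7.4-Gy animals of day 4 2.94, 1.94, 2.57 and 2.32, and the 6.7-Gy animals 1.57, 2.92, 1.495 and 1.16. The 7.4-Gy animals were all above the controls, a 2.54-fold rise (1.35 ± 0.31 SE, adjusted p = 0.00519), while the change after 6.7 Gy was 0.69 (adjusted p = 0.165). A second SERPINE2 probe gave 1.11 after 6.7 Gy (adjusted p = 0.0511) and 1.16 after 7.4 Gy (adjusted p = 0.0256). By day 12 it was 2.004-fold lower than at day 4 (adjusted p = 0.011), at the threshold and under it when any of 5 animals was left out.

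SERPING1, the C1 inhibitor that restrains both complement C1 and the kinin-forming proteases, was 4.17, 4.59, 4.42 and 3.92 in controls and 5.20, 5.09, 6.04 and 5.21 at day 4 after 7.4 Gy. The 6.7-Gy animals measured 4.89, 5.33, 5.04 and 4.70, above all controls as well. The rise was 2.16-fold after 7.4 Gy (1.11 ± 0.23 SE, adjusted p = 0.00258), and after 6.7 Gy the log2 change was 0.71 (adjusted p = 0.055). Of its 3 probes, the second gave 1.05 and the third 0.61 (adjusted p = 0.0817) after 7.4 Gy. Without 7.4-Gy animal 3 or control 4, or as the mean of the 3 probes, the 7.4-Gy change was 0.89, 0.99 and 0.92, under 2-fold. SERPING1 was 2.09-fold lower at day 12 than at day 4 (adjusted p = 0.000932), with all day 12 animals below all day 4 animals, and under 2-fold without 7.4-Gy day 4 animal 3 (-0.96) or 6.7-Gy day 12 animal 2 (-0.95).

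The other serpins did not pass. SERPINF1 (pigment epithelium-derived factor), SERPINH1 (the collagen chaperone HSP47) and SERPINB9 (an inhibitor of granzyme B) had log2 changes of 0.87, 0.82 and 0.70 at day 4 after 7.4 Gy, with adjusted p of 0.0408, 0.0134 and 0.0462, all short of 2-fold. SERPINB2, plasminogen activator inhibitor 2, had a change of 1.16 (adjusted p = 0.302) and was above background on 5 arrays. SERPINA5 and SERPINF2 had changes of 0.50 and 0.83 and also missed the adjusted threshold.

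**Figure D3:**
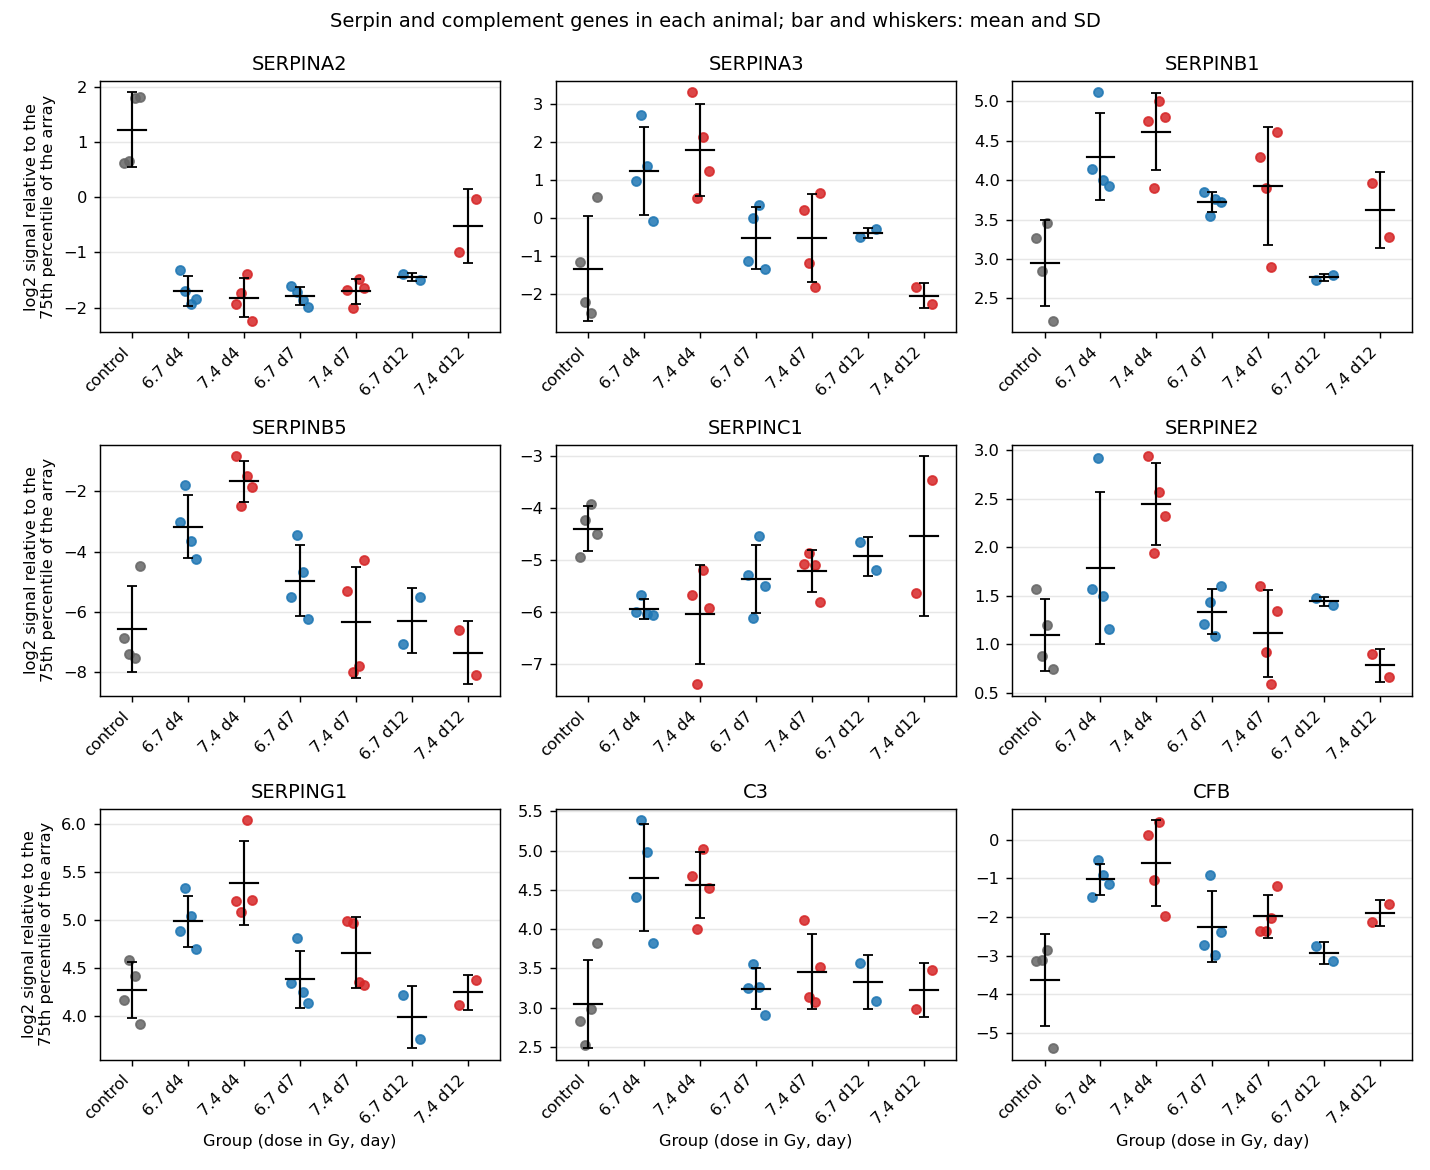
Log2 signal of 7 serpins and of C3 and CFB in each animal (points) by group, controls in grey, 6.7 Gy in blue and 7.4 Gy in red, with the mean and SD of each group in black. SERPINA2 is below the controls in all 20 irradiated animals, whereas the other panels change mainly at day 4.

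Of 11 complement members tested, 2 were called higher at day 4 after 6.7 Gy, 5 after 7.4 Gy and 0 lower at either dose. Of all named genes, 2.24% and 4.13% were called higher at these doses and 1.89% and 3.9% lower. C3, the protein on which all complement routes converge, measured 2.83, 2.52, 2.99 and 3.83 in controls, 4.41, 5.39, 4.99 and 3.83 on day 4 for 6.7 Gy, and 4.67, 4.01, 5.02 and 4.53 after 7.4 Gy. The 7.4-Gy animals were all above the controls, and 6.7-Gy animal 4 lay level with control 4. C3 rose 3.05-fold after 6.7 Gy (1.61 ± 0.33 SE, adjusted p = 0.00576) and 2.86-fold after 7.4 Gy (1.51 ± 0.33 SE, adjusted p = 0.00349). It was 2.39-fold lower at day 7 than at day 4 (-1.25 ± 0.23 SE, adjusted p = 0.00076) and 2.51-fold lower at day 12 (-1.33 ± 0.28 SE, adjusted p = 0.00256). None of the 4 calls was lost by leaving out 1 animal.

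CFB, factor B, the protease of the alternative pathway, was -3.14, -3.11, -2.86 and -5.40 in controls, with control 4 far under the others. At day 4 it was -1.49, -0.53, -0.92 and -1.15 after 6.7 Gy and 0.12, -1.04, 0.46 and -1.98 after 7.4 Gy, all above all controls. The rises were 6.10-fold (2.61 ± 0.56 SE, adjusted p = 0.00791) and 8.13-fold (3.02 ± 0.56 SE, adjusted p = 0.00113). Without control 4 they were still called, at 2.02 and 2.43 on the log2 scale, and with position as a block the 7.4-Gy change was 3.05 with an adjusted p of 0.064. At day 7 the log2 changes of 1.38 and 1.64 against control did not pass, and CFB was 2.47-fold lower than at day 4 (-1.31 ± 0.40 SE, adjusted p = 0.0207). Its day 12 fall, 3.05-fold (adjusted p = 0.0219), was lost without either 6.7-Gy day 12 animal or without 7.4-Gy day 12 animal 1 (adjusted p from 0.0515 to 0.0835).

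C7, a component of the membrane attack complex, was 3.71, 3.54, 3.69 and 3.28 in controls and 4.24, 5.68, 4.65 and 4.16 at day 4 after 7.4 Gy, with no overlap. The 6.7-Gy animals measured 4.85, 4.88, 4.83 and 3.65, and the last of them fell among the controls. C7 rose 2.19-fold after 7.4 Gy (1.13 ± 0.30 SE, adjusted p = 0.0117), and after 6.7 Gy its log2 change of 0.998 (adjusted p = 0.0384) ended just short of 2-fold. Leaving out 7.4-Gy animal 2 brought the 7.4-Gy change to 0.80. C6, of the same complex, was above background on 13 arrays, ranged from -2.65 at day 7 after 6.7 Gy to -0.78 at day 4 after 7.4 Gy against control, and was called in no comparison.

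CD55 and CD59, the membrane proteins that break up complement convertases and block the attack complex, both rose at day 4 after 7.4 Gy. CD55 measured -1.11, -1.12, -0.66 and -1.72 in controls and 1.74, -0.07, 1.37 and 1.17 after 7.4 Gy, a 4.61-fold rise without overlap (2.20 ± 0.51 SE, adjusted p = 0.00548). The 6.7-Gy animals, at -0.18, 1.03, 0.45 and 0.31, were above all controls too, yet the log2 change of 1.56 had an adjusted p of 0.0594. That change passed with slide as a block (adjusted p = 0.0441), spike-in scaling (0.0384), an intensity trend (0.0455) and from the compared groups alone (0.0349). With median centring, quantile normalization, normexp correction, the methods' t-test or position as a block it did not. A second CD55 probe gave 1.13 and 1.73. With position as a block the 7.4-Gy change was 2.25 with an adjusted p of 0.139. At day 12 CD55 was 3.90-fold lower than at day 4 (-1.96 ± 0.44 SE, adjusted p = 0.00371).

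CD59 lay close together after 7.4 Gy, at 4.34, 4.18, 4.44 and 4.38 against 3.12, 3.01, 3.11 and 2.55 in controls. After 6.7 Gy it was 3.68, 3.97, 3.16 and 3.41. The rise after 7.4 Gy was 2.62-fold (1.39 ± 0.17 SE, adjusted p = 3.97e-05), and after 6.7 Gy the log2 change was 0.61 (adjusted p = 0.0298), short of 2-fold. A second CD59 probe gave 0.88 and 1.73. By day 12 its log2 change from day 4 was -0.996 (adjusted p = 0.00015), just under the fold threshold. CD46, the third membrane regulator, changed by 0.39 and 0.25 at day 4 and did not pass.

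C4BPA, the plasma protein that inactivates C4b, passed between days without passing against control. It measured -5.39, -5.12, -3.92 and -4.56 in controls, -5.37, -3.83 and -3.93 at day 4 after 6.7 Gy with 1 value missing as an outlier spot, and -2.54, -3.90, -2.29 and -4.46 after 7.4 Gy. At day 7 it was -7.02, -5.25, -7.14 and -7.18 after 6.7 Gy, above background in 0 of 4, and -5.29, -5.06, -4.81 and -2.42 after 7.4 Gy, above background in 3. The measured log2 change of C4BPA from day 4 was -1.69 ± 0.48 SE at day 7 (adjusted p = 0.0143), at least 2.34-fold lower, and -1.90 ± 0.58 SE at day 12 (adjusted p = 0.0226), at least 2.25-fold lower. With normexp correction these changes were -0.35 and -0.06 and neither passed. The day 12 call was also lost without 6.7-Gy or 7.4-Gy day 12 animal 1 (adjusted p = 0.103 and 0.111).

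The receptors for complement fragments split in direction without reaching 2-fold. C3AR1, the C3a receptor, had log2 changes of 0.85 and 0.96 at day 4, the second with an adjusted p of 0.0221. C5AR1, the C5a receptor of myeloid cells, had -0.72 (adjusted p = 0.0425) and -0.93 (adjusted p = 0.00592). CFD, factor D, had -0.83 after 6.7 Gy, where 1 animal measured -0.51 and the others 3.92 to 5.13, and 0.31 after 7.4 Gy, and did not pass. Its probe carries an older array name of a different protease and was assigned to CFD only through a gene ID, so the identity is uncertain.

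The day comparisons, which use no control, set the days against each other directly. No day 4 array shared an array position with a day 7 or day 12 array, so in them day and position cannot be told apart. At day 7, 0 members were called higher and 8 lower than at day 4, against 2.59% and 2.27% of named genes. At day 12, 2 were called higher and 14 lower than at day 4, against 3.74% and 3.6% (7.34% in either direction). The median log2 change of the members was -0.60 at day 7 and -0.64 at day 12, where all named genes had 0.02 and 0.03. Of the 16 members that rose at day 4 after 7.4 Gy, 6 were called lower at day 7 and 11 at day 12. Of all 609 named genes that rose there, 29.2% and 54% were called lower at these times, and these comparisons share the day 4 animals by which the genes were picked. The 2 higher at day 12 were F2 and SERPINC1. THBD, TFPI, C4BPA and F2 were called between days and in no comparison with control.

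No member was called between the doses. At day 4, 0 of 46 were called for 7.4 against 6.7 Gy, where the background was also 0%, 7 members had an unadjusted limma p under 0.05, and the methods' t-test called 0. At day 7, 0 were called with a background of 0%, 3 had an unadjusted p under 0.05 and the methods' t-test called 0. The smallest p at day 4 belonged to CD59, whose difference was 0.78 on the log2 scale (adjusted p = 0.235), with all 4 animals of the higher dose above all 4 of the lower. F3 followed with 0.76 (adjusted p = 0.471), where the 7.4-Gy animals again did not overlap the 6.7-Gy animals. With array position as a block, CD59 (1.05, adjusted p = 0.0332) and F13A1 (1.98, adjusted p = 0.0342) passed, whereas 0 members passed with position and scan day as blocks together and 0 within array position 2. At day 7 C4BPA was higher after 7.4 Gy by 2.25 (95% interval 0.90 to 3.61, adjusted p = 1).

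**Figure D4:**
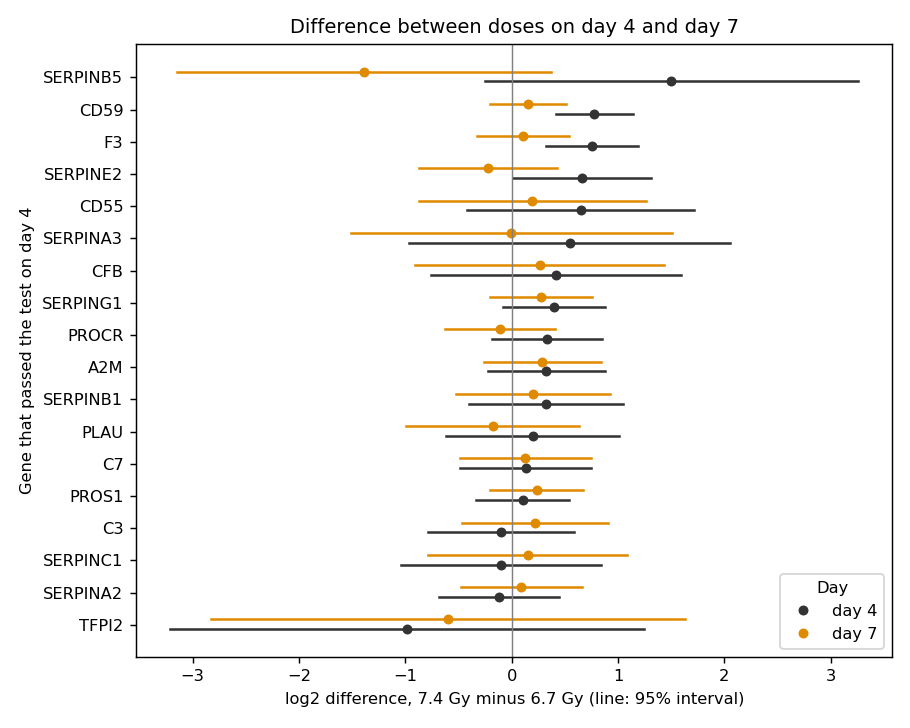
Log2 difference between 7.4 and 6.7 Gy with its 95% interval from limma, at day 4 (dark) and day 7 (orange), for the 18 members that passed the test at day 4 in either dose. The day 4 intervals of CD59, F3 and, barely, SERPINE2 lie above 0 before adjustment, those of TFPI2 and SERPINB5 are widest, and no member passed after adjustment.

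Array position touched the day 4 counts. All 4 controls and 2 of the 6.7-Gy animals lay at position 1, and the other 2 with all 7.4-Gy animals at position 2. With position as a block, 14 members were called after 6.7 Gy and 21 after 7.4 Gy. No group but the 6.7-Gy animals lay at both positions, so the 7.4-Gy changes of that fit rest on the position gap among them. With position and scan day as blocks together, an alternative added after seeing the data, 12 were called after 6.7 Gy and 4 after 7.4 Gy, and all 29 changes called at day 4 kept their direction. Within position 1 alone, 2 animals at 6.7 Gy against 4 controls, 2 members were called, TFPI2 (6.01, adjusted p = 0.0265) and C7 (1.31, adjusted p = 0.0491).

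Other genes of these pathways were read from a list of 54, of which 39 could be tested. After 6.7 Gy 3 rose and 1 fell at day 4, against 2.24% and 1.89% of all named genes. After 7.4 Gy 5 rose and 1 fell, against 4.13% and 3.9%. VWF, von Willebrand factor of endothelium and platelets, rose 2.36-fold after 7.4 Gy (adjusted p = 0.000415). SERPINB8, an intracellular serpin, rose 2.33-fold after 6.7 Gy (adjusted p = 0.0106). SERPINB3, a squamous cell serpin, passed after 7.4 Gy (adjusted p = 0.022) but was well above background in 0 of 4 controls, so no fold is given. SERPINI1, neuroserpin, rose 2.88-fold (adjusted p = 0.000761). F2RL3, the thrombin receptor PAR4, also passed (adjusted p = 0.0228), with 1 of 4 controls above background. FCN2, a lectin that starts complement, fell 2.06-fold (adjusted p = 0.0429) and 2.31-fold (adjusted p = 0.0116). Between days, 6 of the 39 were lower at day 7 than at day 4 and 6 at day 12, against 2.27% and 3.6% of all named genes. None was higher, against 2.59% and 3.74%.

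Markers of other cell types moved beside these members at day 4, and their part in the results was not tested. Of 4 tested neutrophil markers 2 were called higher after 7.4 Gy, S100A8 by 12.3-fold with 3 of 4 controls above background and S100A9 by 4.70-fold, and MPO was well above background on no array. The summed neutrophil signal ran from -0.26 to 0.15 in controls, 0.02 to 2.31 after 6.7 Gy and 0.17 to 3.42 after 7.4 Gy. Of 8 fibroblast markers 3 were higher after 7.4 Gy, with summed signals of 6.85 to 8.07 in controls, 7.38 to 7.73 after 6.7 Gy and 7.998 to 8.50 after 7.4 Gy. Of 7 macrophage and monocyte markers 1, LYZ, was higher after 7.4 Gy, with sums of 3.28 to 3.79, 3.74 to 4.12 and 3.89 to 4.54. Surface colonocyte markers went down, 4 of 7 after 6.7 Gy and 6 of 7 after 7.4 Gy, with sums of 8.59 to 9.42 in controls, 5.83 to 7.75 after 6.7 Gy and 4.36 to 7.55 after 7.4 Gy. Of 6 general epithelial markers 3 fell at each dose, from sums of 7.65 to 7.78 to sums of 6.78 to 7.08 and 6.63 to 7.13.

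None of 6 endothelial markers and none of 3 smooth muscle markers was called at day 4. The endothelial sums were 1.12 to 1.501 in controls, 1.08 to 1.58 after 6.7 Gy and 1.36 to 1.83 after 7.4 Gy, and the smooth muscle sums 8.98 to 9.67, 7.80 to 9.66 and 9.07 to 9.41. Of 5 tested platelet markers 1, PF4, was called higher at both doses (adjusted p = 0.0191 and 0.00384), with 2 of 4 controls above background. The median log2 change of the 5 was -0.31 after 6.7 Gy and -0.509 after 7.4 Gy. The platelet sums overlapped, at 0.135 to 0.463 in controls, -0.207 to 0.537 after 6.7 Gy and -0.166 to 1.262 after 7.4 Gy. PPBP and GP1BA were well above background on no control, and CLEC1B on no array. Among 9 liver-made plasma protein genes 0 rose at day 4 at either dose, and TTR fell 3.70-fold after 7.4 Gy (adjusted p = 0.0262).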

How the data were processed

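RNA from colon of 24 animals was labelled with Cy3 and hybridised to 1-colour Agilent arrays, 1 array per animal as labelled. The authors deposited the scanner output, whose processed signal is a background-subtracted intensity on a linear scale for each spot, and a table of normalized log2 values, which served as an alternative. Here the log2 of each processed intensity was taken relative to the 75th percentile of its array. Control spots and outlier spots were left out, spots of 1 probe were averaged, and probes entered the test if the scanner marked them well above background on 2 or more arrays. All 24 arrays entered 1 fit with a mean per group in limma 3.58.1 (R 4.3.3), and p-values were adjusted over all probes by the method of Benjamini and Hochberg. A change was called with an adjusted p under 0.05 and at least 2-fold, and the fit was tested on simulated data. P-values set each difference between groups against the spread between animals, estimated over all groups together. At day 12, with 2 animals per dose, most of that estimate comes from the other groups.

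The members and lists were chosen with earlier results of these data known. Each gene was represented by its brightest probe, and 3 members (SERPINF1, CFD and CD55) were named through a RefSeq gene table. Values are given for every member called in at least 1 of 10 comparisons, and the rest by range and count. Genes of the other pathway list are named where called, except some that are not reported here. The alternatives were normexp background correction, other scalings, other filters on dim probes, the mean of a gene's probes, slide, array position, scan day and replicate number as blocks, fits within 1 array position or of the compared groups alone, an intensity trend, the methods' t-test, other thresholds and leaving out each array. A treatment note names a different last day from the sample labels, which were followed.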

Additional observations from a re-analysis of the deposited data

Results flagged for a closer look

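Of 109 groups of 4 animals tested among members that passed, 7 held an animal far from the other 3, and chance gives about 1 in 20 groups. F2 was lowest in control 3 at -6.19, and CFB was lowest in control 4 at -5.40. At day 4 after 6.7 Gy, SERPINC1 was highest in animal 2 at -5.67 and C7 lowest in animal 4 at 3.65. SERPING1 was highest in animal 3 of the 7.4-Gy group at day 4, at 6.04. C4BPA was highest in animal 2 at day 7 after 6.7 Gy, at -5.25, and in animal 4 at day 7 after 7.4 Gy, at -2.42.

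The response differed between days in the limma comparison of irradiated animals over both doses, where array position differed with day too. The log2 change from day 4 to day 7 was -1.35 for THBD, -2.51 for TFPI2, -1.41 for PLAU, -2.05 for SERPINA3, -3.23 for SERPINB5, -1.25 for C3, -1.31 for CFB and -1.69 for C4BPA. From day 4 to day 12 the coagulation genes that passed changed by 1.51 (F2), -1.46 (THBD), -1.02 (TFPI), -3.87 (TFPI2), -1.003 (PLAU) and -1.28 (A2M). The serpins changed by -2.73 (SERPINA3), -1.26 (SERPINB1), -4.40 (SERPINB5), 1.26 (SERPINC1), -1.003 (SERPINE2) and -1.07 (SERPING1). The complement genes changed by -1.33 (C3), -1.61 (CFB), -1.90 (C4BPA) and -1.96 (CD55).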

How the results depend on the processing

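No called change reversed its direction under any alternative. Of the 56 called changes, 56 stayed called with median centring, the authors' normalized values, an intensity trend or no filter on dim probes, 37 with normexp correction and 31 with the methods' t-test, and the cause was not tested. After 6.7 Gy at day 4, 11 members were called, against 7 from the compared groups alone, 7 with slide as a block, 3 by the t-test and 2 within array position 1. After 7.4 Gy at day 4, 18 were called, against 4 with position and scan day as blocks, where 12 of 29 day 4 changes stayed called. At day 7 the t-test called 0 at either dose, and an unadjusted p with 2-fold called 5 after 6.7 Gy and 4 after 7.4 Gy. At day 12 after 6.7 Gy, 0 were called from the compared groups alone or by the t-test, and 2 at an unadjusted p. After 7.4 Gy, 1 was called with an intensity trend, normexp correction or quantile normalization, and 2 at an unadjusted p. Between doses at day 4, 2 were called with position as a block and 2 at an unadjusted p, and at day 7, 1 at an unadjusted p. Between day 12 and day 4 the count of 16 became 27 with no fold threshold, 10 with normexp correction and 10 by the t-test, and between day 7 and day 4 the count of 8 became 24 with no fold threshold. Leaving out 1 animal gave 6 to 15 for 6.7 Gy on day 4, the lowest without animal 2, and 16 to 20 after 7.4 Gy. It gave 1 to 1 at day 7 after 6.7 Gy, 1 to 2 after 7.4 Gy (A2M added without animal 3, at 1.003), 1 to 1 at day 12 after 6.7 Gy, 0 to 1 after 7.4 Gy, 0 to 0 between doses on both days, 11 to 18 between day 12 and day 4, and 8 to 12 between day 7 and day 4. Same-numbered animals of different groups correlated with r from -0.23 to 0.24, so the numbers were not taken as pairs. The replicate block gave 20 at day 4 after 7.4 Gy and 19 between day 12 and day 4, and changed no other count. Spike-in scaling moved the median of all named genes to 0.17 for 6.7 Gy and 0.25 for 7.4 Gy on day 4. For members near background, signal limited the size of a change.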
